A study of Mus musculus with 21 samples.

Results

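Asns, which encodes asparagine synthetase, and 8 other genes of the ATF4 stress response (Atf4, Atf5, Ddit3, Trib3, Chac1, Psat1, Phgdh and Sesn2) were examined in mouse liver. Members were taken by gene symbol, as every probe set (a group of probes for 1 transcript) that the array's annotation gives to 1 of these 9 genes of 12393 on the array. This yielded 20 of 22690 probe sets, of which 18 carried that symbol alone. The gene group was chosen by a measured value, the lower Asns level in knockout than in control liver on day 2. That contrast is therefore given as a description with no test, for all members, as are all values of Asns that rest on control day 2. The other members were added as genes of the same pathway.

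When amino acids run short or proteins misfold, kinases phosphorylate the translation factor eIF2alpha, protein synthesis slows and translation of the transcription factor ATF4 increases. ATF4 then raises genes for amino acid synthesis and transport, together with regulators that limit the response or promote cell death. Because ATF4 is controlled largely at translation, its mRNA need not follow its activity. In liver this pathway is known for its response to dietary protein and to stress of the endoplasmic reticulum.

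RNA came from livers of 9-month-old male mice on 21 arrays. Mdr2-/- mice (KO, strain FVB129P2) lack the phospholipid transporter encoded by Abcb4 and develop chronic biliary inflammation, and controls were FVB129P2/FVBNJ, so genotype and strain background cannot be told apart. All mice, controls included, underwent a 30% partial hepatectomy. The lobe taken at surgery was the day 0 sample, with 6 KO and 3 control arrays, and livers on days 2 and 6 gave 3 arrays per genotype and day. Replicates within a group were different mice. A later sample often came from a mouse that had also given a day 0 lobe, namely in 6 KO and 3 control mice, and the other 3 control arrays came from mice 264, 392 and 393, seen once.

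Values are log2 expression, on which a step of 1 is a doubling, and a value at or under 4 was treated as near background. Abcb4 lay between 7.25 and 8.96 in KO and between 9.23 and 10.33 in control, so the groups did not overlap and every array followed its genotype label. The KO level was still above background, and where the probes lie relative to the disrupted sequence was not examined. Hepatocyte markers were high throughout, with a mean over 5 genes between 14.29 and 14.76 in all arrays. RNA quality differed. The log2 difference between the 3' and 5' probe sets of Gapdh, which grows as RNA shortens, was 9.5 in control day 2 mouse 265, 2.03 in KO day 0 mouse 337 and 1.58 in control day 2 mouse 263. It was 0.94 in control day 6 mouse 303 and 0.23 or less in the other arrays. The same difference for actin was highest in control day 2 mice 265 and 263 and control day 6 mouse 303. It was 5.92, 3.91 and 2.72 there, and 2.48 or less elsewhere. A bulk sample cannot tell fewer cells of a type from less RNA per cell.

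The promoters of the 3 members that were high in control day 2 livers are shown first, since they carry or lack the kind of sequence through which ATF4 acts. The windows run from 250 bases before to 50 bases after the transcription start, from RefSeq (GRCm38.p6), and all 9 members had an entry, with 11 windows. A pair of related 8-base forms of the composite C/EBP and ATF motif was searched on both strands, TGATGNAA and TGNTGCAA, which overlap where the letters allow both. Capitals mark each match. The windows are chr6:7693160-7693459 (Asns, minus strand), chr2:119350992-119351291 (Chac1, plus strand) and chr19:15925010-15925309 (Psat1, minus strand).
Asns: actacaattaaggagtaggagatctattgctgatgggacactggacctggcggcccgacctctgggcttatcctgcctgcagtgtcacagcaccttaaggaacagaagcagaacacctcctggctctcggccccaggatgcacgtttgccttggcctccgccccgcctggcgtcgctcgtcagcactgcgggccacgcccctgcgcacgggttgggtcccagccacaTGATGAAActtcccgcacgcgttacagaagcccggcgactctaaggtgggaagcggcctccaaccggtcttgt
Chac1: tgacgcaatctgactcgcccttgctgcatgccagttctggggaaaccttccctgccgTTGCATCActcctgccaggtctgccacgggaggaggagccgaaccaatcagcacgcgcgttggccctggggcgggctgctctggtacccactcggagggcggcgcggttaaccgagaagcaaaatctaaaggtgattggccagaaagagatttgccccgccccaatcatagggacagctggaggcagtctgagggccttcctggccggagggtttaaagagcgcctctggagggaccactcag
Psat1: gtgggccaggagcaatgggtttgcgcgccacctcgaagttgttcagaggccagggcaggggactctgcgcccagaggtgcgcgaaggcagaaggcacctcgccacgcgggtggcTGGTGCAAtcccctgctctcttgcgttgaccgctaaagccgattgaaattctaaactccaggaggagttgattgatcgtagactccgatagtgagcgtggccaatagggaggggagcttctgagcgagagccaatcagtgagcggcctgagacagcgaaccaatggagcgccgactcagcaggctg

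In Asns the match TGATGAAA began 23 bases before the start. In Chac1 the match TGATGCAA lay on the opposite strand, from 193 bases before the start, and in Psat1 the match TGGTGCAA began 136 bases before it. A further Psat1 window held no match. Trib3 held TGGTGCAA from 33 bases before the start and TGATGTAA, on the opposite strand, from the base numbered 15 after it, and Sesn2 held TGCTGCAA on the opposite strand at 218 bases before. Either form occurred in 5 of the 11 member windows and in 6.2% of 32851 promoter windows of this length. Because the forms were chosen after the member windows had been read, nothing is read from these shares. Atf4, Atf5, Ddit3 and Phgdh had no match in these windows. A match of letters is not a measured binding site.

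Asns makes asparagine from aspartate with glutamine as nitrogen donor. Its mRNA was near background in all KO arrays and in control livers before surgery, and it was high in control livers after resection. The control day 0 arrays read 2.87, 2.94 and 2.96. Control day 2 mice 263, 264 and 265 read 5.99, 7.14 and 8.57. Control day 6 mice 393, 303 and 392 read 3.37, 4.82 and 7.49. The KO day 0 arrays had a lowest, median and highest value of 2.61, 2.77 and 3.66. On day 2 the KO values were 2.74, 2.97 and 3.15, and on day 6 they were 2.71, 2.85 and 2.96. All 3 control day 2 livers thus lay above every KO liver and above every control liver at surgery, and the control day 6 livers spread from near background to the level of day 2.

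**Figure D1:**
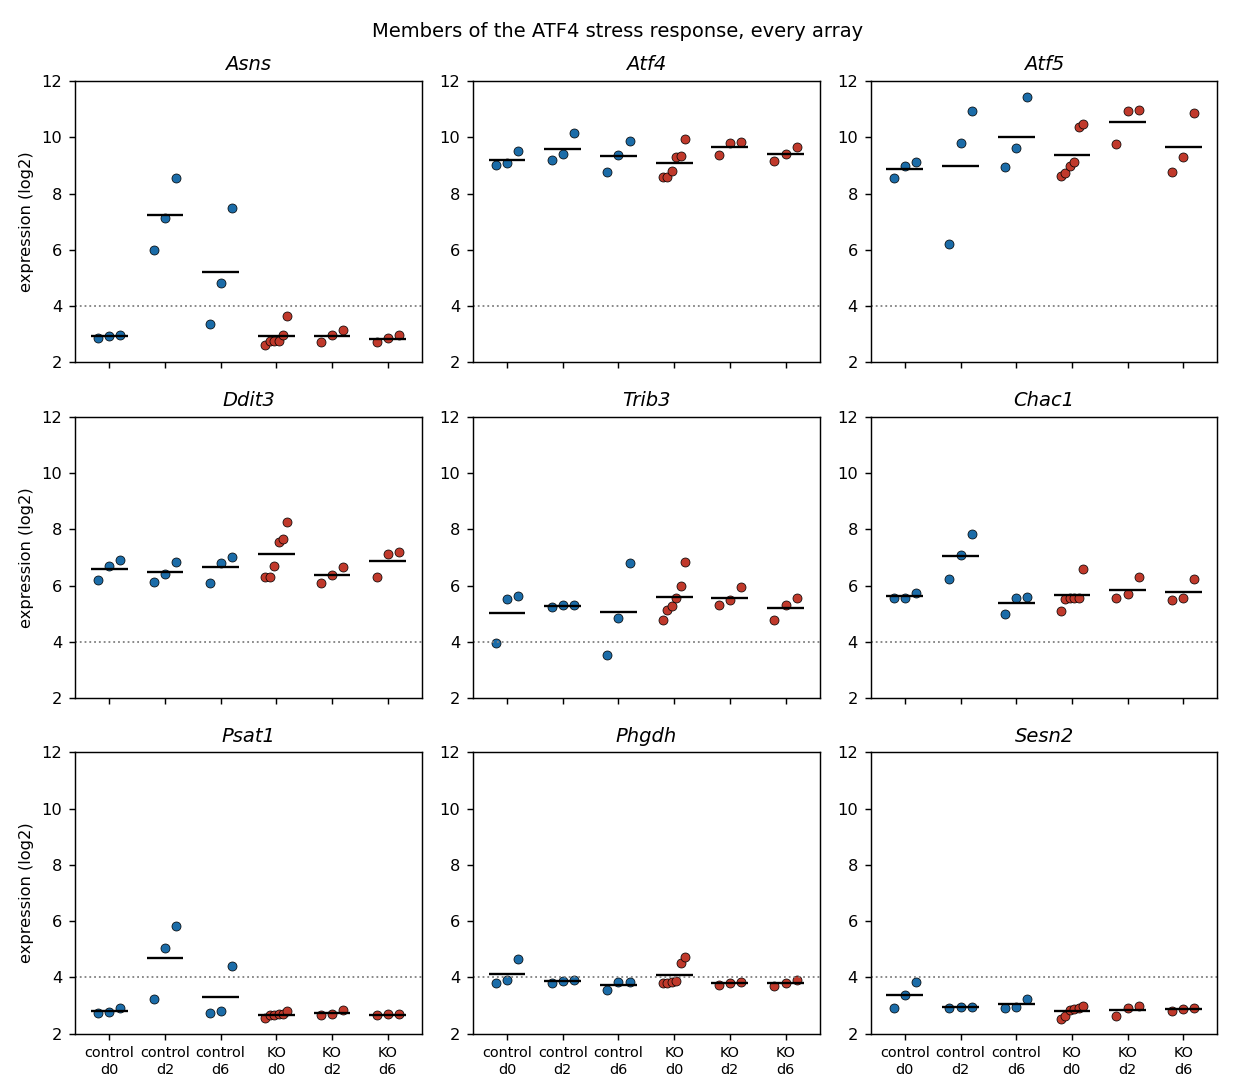
Expression (log2, y axis) of the 9 members on every array, by genotype and day (x axis; control blue, KO red). Points are arrays, horizontal bars group means and the dotted line the value of 4; each panel shows the probe set with the highest mean. Asns and Psat1 rise above 4 only in control livers after resection, while Atf4 lies between 8.58 and 10.14 in all groups.

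In order, the group means of Asns were 7.23 ± 1.29 (SD, n = 3) in control day 2 and 5.23 ± 2.09 (SD, n = 3) in control day 6. They were followed by 2.95 ± 0.206 (SD, n = 3) in KO day 2, 2.92 ± 0.0473 (SD, n = 3) in control day 0, 2.92 ± 0.378 (SD, n = 6) in KO day 0 and 2.84 ± 0.125 (SD, n = 3) in KO day 6. Control day 2 was not tested against control day 6, and their values ran from 5.99 to 8.57 and from 3.37 to 7.49. The means of the last 4 groups lay between 2.84 and 2.95, all near background. As a description, Asns on day 2 differed by −4.28 ± 0.70 (SE, log2) between KO and control, and in control it was 4.31 ± 0.70 higher than on day 0. In both, the lower group was near background, so the size is uncertain. On the second Asns probe set, 1451095_at, they were smaller, at −3.25 ± 1.07 and 3.26 ± 1.07. Mouse 264, the control day 2 liver with a Gapdh difference of 0.07, read 7.14. With this mouse as the only control day 2 sample the day 2 difference was −4.19.

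The second Asns probe set, 1451095_at, showed the same livers apart from 1. It read 6.90, 7.54, 4.97 and 7.15 in control day 2 mice 264 and 265 and control day 6 mice 303 and 392. In control day 2 mouse 263 it read 2.40, against 5.99 on the first probe set, and it read 2.36 in control day 6 mouse 393. In all KO arrays it lay between 2.29 and 2.54. The probe sets therefore disagreed for mouse 263, whose Gapdh difference was 1.58. The first probe set carries the suffix _x_at, which marks probes that may bind other transcripts.

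**Figure D2:**
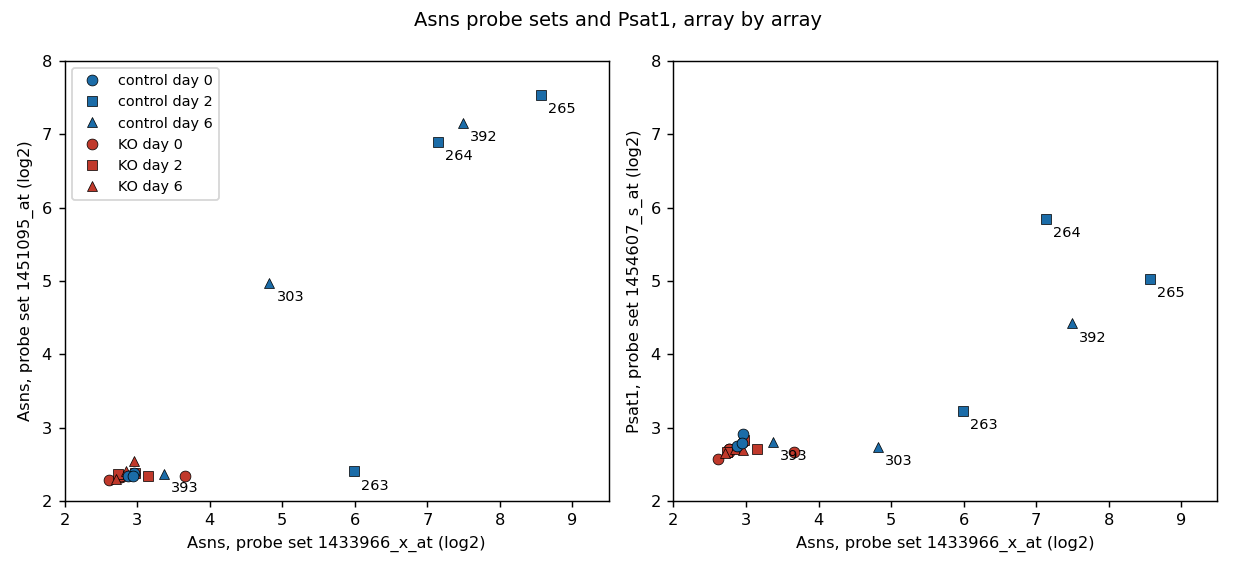
Each point is 1 array (control blue, KO red; circles day 0, squares day 2, triangles day 6), with log2 values of Asns probe set 1433966_x_at on the x axis. The y axis is the second Asns probe set (left) or Psat1 (right), and numbers are mice. Control mice 264, 265 and 392 stand high on both axes, and mouse 263 is high on the first Asns probe set only.

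On days other than day 2, Asns was tested by limma with Benjamini-Hochberg adjustment over 7320 genes. KO and control did not differ detectably before surgery (−0.00 ± 0.60, SE, adjusted p = 1.0), and the sign of so small a value turned with quantile normalization (0.01). On day 6 Asns was lower in KO by 2.39 on the log2 scale (−2.39 ± 0.70, adjusted p = 0.106), but this did not pass. The groups did not overlap there, which held for 19.5% of all genes. In control, day 6 exceeded day 0 by 2.30 ± 0.70 (adjusted p = 0.0816), which did not pass either. Asns entered the test through 5 arrays, all of control livers after resection and 3 of them from the day 2 group that chose it, and with no filter the adjusted p-values were 0.179 and 0.158. Their size turned on single day 6 mice. Without mouse 392 they were −1.25 (adjusted p = 0.348) and 1.17 (adjusted p = 0.40), and without mouse 393 they were −3.31 (adjusted p = 0.0117) and 3.23 (adjusted p = 0.00714). With arrays weighted by quality they were −2.63 (adjusted p = 0.0243) and 2.57 (adjusted p = 0.0143). The p-values without mouse 393 and with weights rest on the same filter. No unfiltered ones are given for them, so they are not read as calls. The day 6 response itself, KO minus control, was −2.38 ± 0.92 (adjusted p = 0.671). Within KO the differences from day 0 were 0.03 ± 0.60 on day 2 (adjusted p = 1.0) and −0.08 ± 0.60 on day 6 (adjusted p = 1.0).

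In mice sampled both at surgery and later, Asns rose from 2.96 to 5.99 in control mouse 263 and from 2.87 to 8.57 in control mouse 265 by day 2, and from 2.94 to 4.82 in control mouse 303 by day 6. In the 6 KO mice the change lay between −0.51 (mouse 258) and 0.36 (mouse 250). The 3 control mice thus all gained, each by more than any KO mouse on this probe set; on 1451095_at mouse 263 changed by only 0.02.

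**Figure D3:**
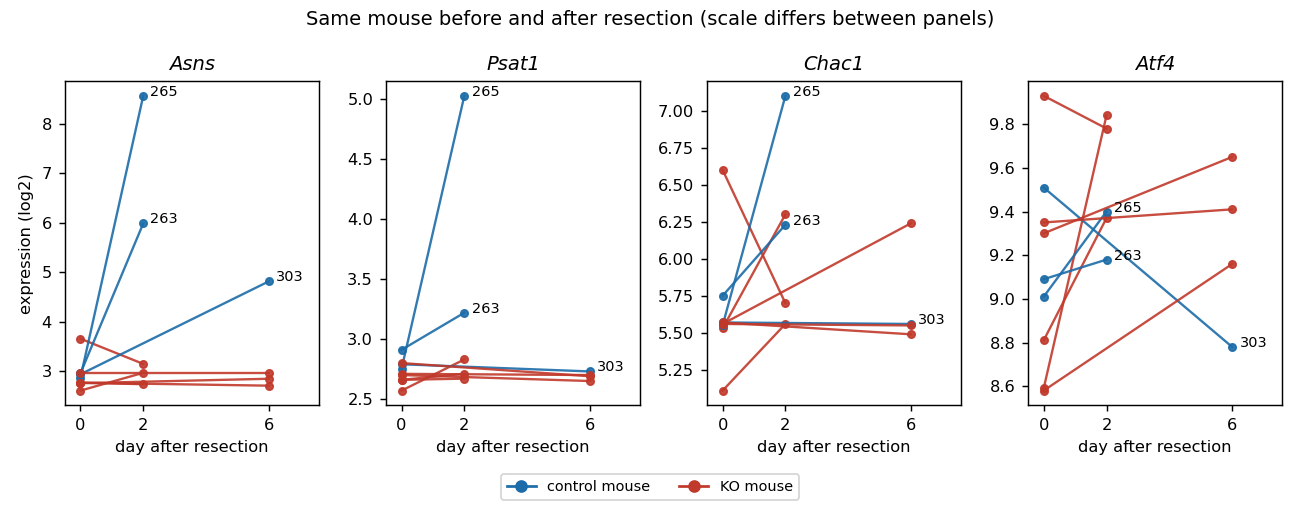
Log2 expression (y axis, scaled per panel) of Asns, Psat1, Chac1 and Atf4 in the 9 mice sampled at surgery and again on day 2 or 6 (x axis, days). Lines join samples of 1 mouse (control blue with mouse number, KO red); the control lines for Asns rise by 1.88 to 5.70 and the KO lines change by −0.51 to 0.36.

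Psat1 and Phgdh encode enzymes of serine synthesis, phosphoserine aminotransferase and phosphoglycerate dehydrogenase. Psat1 was near background in KO, between 2.57 and 2.83 in the 12 arrays, and between 2.75 and 2.91 in control day 0. It read 3.22, 5.84 and 5.03 in control day 2 mice 263, 264 and 265, and 2.80, 2.73 and 4.42 in control day 6 mice 393, 303 and 392. The 3 livers above 4 were those in which Asns was highest. From day 0 to day 2 in control, Psat1 rose by 1.88 ± 0.46 (SE, limma adjusted p = 0.0192). It entered the test only through those 3 high arrays, so the filter favoured this difference; with no filter its adjusted p was 0.0384. The call was lost without control day 0 mouse 265 (adjusted p = 0.0701), control day 2 mouse 265 (0.0756) or control day 0 mouse 303 (0.0612). It was also lost when the fit held the 2 control groups alone (0.234). Without the 3 arrays of high Gapdh difference the rise was 3.02. That value rests on mouse 264 alone in control day 2, the highest Psat1 array of the series. On day 6 Psat1 did not pass (0.50 ± 0.46 against day 0, adjusted p = 0.655, and −0.64 ± 0.46 for KO against control, adjusted p = 0.657). The other Psat1 probe set, 1451064_a_at, read 2.59, 4.93 and 3.73 in control day 2 and 4.19 in control day 6 mouse 392, against 2.43 or less in KO.

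Phgdh had 6 probe sets, 2 of them shared with a predicted gene. The probe set that stood for it, 1426658_x_at, lay between 3.57 and 4.72 and passed the filter through 3 arrays above 4, KO day 0 mice 250 and 312 and control day 0 mouse 265. It was not higher in control day 2, where it read 3.81, 3.91 and 3.86 in mice 263, 264 and 265. On 3 others, 1437621_x_at, 1454714_x_at and 1456471_x_at, the highest value of the series was in control day 2 mouse 264, at 3.54, 4.15 and 4.17, the last on a shared probe set. Mouse 264 was also the highest for Psat1 and Chac1. These values are close to background. From day 0 to day 2 in control, 1437621_x_at was at 0.42 ± 0.15 (SE, limma adjusted p = 0.13 over probe sets with no filter) and 1454714_x_at at 0.52 ± 0.20 (adjusted p = 0.14), and neither passed.

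Chac1 encodes an enzyme that breaks down glutathione and is induced downstream of ATF4. It was measured above 4 on every array. Control day 2 read 6.23, 7.84 and 7.10 in mice 263, 264 and 265, control day 0 read 5.55, 5.57 and 5.75, and control day 6 read 4.97, 5.56 and 5.58. KO day 0 arrays had a lowest, median and highest value of 5.11, 5.56 and 6.60, KO day 2 read 5.56, 5.70 and 6.30, and KO day 6 read 5.49, 5.55 and 6.24. The control groups of day 0 and day 2 did not overlap. The share of all genes that separate in that comparison is not given, so nothing is read from it. In another comparison with 3 arrays in each group, KO against control on day 2, 20.1% of all genes separated. Mouse 392, high for Asns and Psat1 on day 6, read 5.58 for Chac1. In control, Chac1 rose by 1.43 ± 0.37 from day 0 to day 2 (SE, limma adjusted p = 0.0239), in both mice also sampled at surgery, by 0.48 in mouse 263 and 1.55 in mouse 265. The call was lost without control day 2 mouse 264 (adjusted p = 0.0612) or 265 (0.0732), without control day 0 mouse 265 (0.081) or 303 (0.0754), and when the fit held the 2 control groups alone (0.187). Without the 3 arrays of high Gapdh difference the rise was 2.22. That value rests on mouse 264 alone in control day 2, the highest Chac1 array of the series. On day 2, as a description, Chac1 was at −1.20 ± 0.37 and Psat1 at −1.96 ± 0.46 in KO against control. Without the 3 arrays, again with mouse 264 alone in control day 2, they were at −1.99 and −3.10.

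Atf4 and Atf5 encode basic leucine zipper transcription factors of the response. Atf4 lay between 8.58 and 10.14 on every array. Control arrays read 9.01, 9.09 and 9.51 on day 0, 9.18, 9.40 and 10.14 on day 2, and 8.78, 9.37 and 9.88 on day 6. KO arrays ran from 8.58 to 9.93 (median 9.05) on day 0 and read 9.37, 9.78 and 9.84 on day 2 and 9.16, 9.41 and 9.65 on day 6. On this probe set all 6 groups overlapped. Atf4 did not pass in control from day 0 to day 2 (0.37 ± 0.34, SE, adjusted p = 0.51) or in KO over the same days (0.57 ± 0.30, adjusted p = 0.899). A second Atf4 probe set, 1438992_x_at, was above 4 on all arrays and differed from the first. It read 8.95, 9.31 and 9.40 in control day 2 mice 263, 264 and 265, against 7.74, 8.0 and 8.05 in control day 0. KO day 2 read 8.05, 8.48 and 8.72, and KO day 0 ran from 7.51 to 8.91. Its difference in control from day 0 to day 2 was 1.29 ± 0.36 (SE, limma adjusted p = 0.0531 over probe sets with no filter), which did not pass, and mice 263 and 265 changed by 0.90 and 1.66. On the first probe set, Atf4 was highest in control day 2 mouse 264, KO day 0 mouse 258 and control day 6 mouse 392. It read 10.14, 9.93 and 9.88 there, and Asns read 7.14, 3.66 and 7.49. Next came KO day 2 mice 254 and 258, with Atf4 at 9.84 and 9.78 and Asns at 2.74 and 3.15. Atf5 ranged from 6.22 to 11.44. Its lowest value was in control day 2 mouse 265, the array with the Gapdh difference of 9.5, and its part in that value was not tested; mice 263 and 264 read 9.80 and 10.94. KO day 2 read 9.76, 10.94 and 10.96, against 8.61 to 10.46 in KO day 0 (1.17 ± 0.79, adjusted p = 0.965). Atf5 was higher on the later day in all 6 KO mice, by 0.17 to 1.81, and in 2 of the 3 control mice, by 0.68 in mouse 263 and 0.38 in mouse 303. Control mouse 265, the array with low Atf5 named above, changed by −2.76. These are descriptions.

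Ddit3 (CHOP, a transcription factor linked to cell death) and Trib3 (a pseudokinase that restrains ATF4) are later targets. Ddit3 read 6.32, 6.32, 6.71, 7.54, 7.67 and 8.24 in KO day 0, in mice 250, 258, 254, 312, 337 and 332, and 6.20, 6.68 and 6.91 in control day 0. It did not pass between genotypes on day 0 (0.54 ± 0.38, SE, adjusted p = 0.447). In control day 2 it read 6.14, 6.41 and 6.84, and from day 0 to day 2 it was at −0.13 ± 0.43 in control (adjusted p = 0.871) and −0.76 ± 0.38 in KO (adjusted p = 0.869). That KO value sets the day 2 mice against all 6 KO mice at surgery. Within mice 250, 254 and 258, sampled on both days, Ddit3 changed by 0.06, −0.62 and 0.34. Mice 312, 332 and 337, the highest at surgery, changed by −0.34, −1.13 and −1.38 by day 6, and the KO groups of day 6 and day 0 differed by −0.27 ± 0.38 (adjusted p = 1.0). Trib3 read 5.22, 5.30 and 5.31 in control day 2, within the 3.97 to 5.63 of control day 0. Its highest values were 6.85 in KO day 0 mouse 254 and 6.81 in control day 6 mouse 392. Trib3 was at 0.56 ± 0.54 in KO against control on day 0 (adjusted p = 0.618). A second Trib3 probe set, 1456225_x_at, read 4.59, 4.77 and 5.06 in control day 2 and 2.97 to 4.79 in control day 0. That difference did not pass (0.74 ± 0.61, SE, limma adjusted p = 0.462 over probe sets with no filter). Control mice 263 and 265 changed by 0.34 and 0.27 on it by day 2, and by −0.41 and −0.20 on the first Trib3 probe set. Sesn2, which encodes a stress-induced inhibitor of mTORC1, stayed under 4 on all arrays (2.53 to 3.83) and was not tested. With no filter it was lower in KO on day 0 (−0.58 ± 0.15, adjusted p = 0.0325), a difference between values near background.

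Of the 9 members, 8 passed the low-value filter, Asns, Psat1 and Phgdh through 5, 3 and 3 arrays. In control from day 0 to day 2, 2 of the 7 members tested were called by limma, against 9.51% of all genes, both higher, where the background is 5.23%. The share called in either direction, 9.51% with all arrays, itself moved with single arrays. It was 2.36% without control day 2 mouse 265, and 2.45%, 3.28% and 5.51% without control day 0 mice 265, 303 and 263. Without control day 2 mice 263 and 264, each left out in turn, it was 14.2% and 17.5%. The share in either direction was 0.369% when the fit held the 2 control groups alone. The 7 members were read on the same control day 2 arrays whose Asns values chose the group. Psat1 also passed the filter only through 3 high arrays, 2 of them in control day 2. Nothing is therefore read from this count. On KO against control at day 0 none of 8 was called (background 9.66%). None had an unadjusted p under 0.05 there, against 22.3% of all genes. On KO against control at day 6 none was called (1.73%). There 1 member, Asns, had an unadjusted p under 0.05, as did 12.9% of all genes. In control from day 0 to day 6 none was called (2.86%). Asns was again the 1 member at an unadjusted p under 0.05, beside 16.3% of all genes. In KO no member was called on day 2 (background 0%) or on day 6 (0.137%). None had an unadjusted p under 0.05 on these days, against 6% and 5.44% of all genes. For the day 6 response, KO minus control, none was called (0.164%). Asns had an unadjusted p under 0.05 in it, as did 5.36% of all genes. On day 2 the KO and control groups of 2 members, Asns and Psat1, did not overlap, against 20.1% of all genes; limma called 5.71% of all genes there. Nothing is read from either, since the choice of genes used that contrast. Group separation was also seen for 2 members on day 6 (19.5% of all genes). The median over the 7 members other than Asns from day 0 to day 2 in control was 0.24, beside 0.08 for all genes. It too rests on the control day 2 arrays that chose the group, and nothing is read from it.

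**Figure D4:**
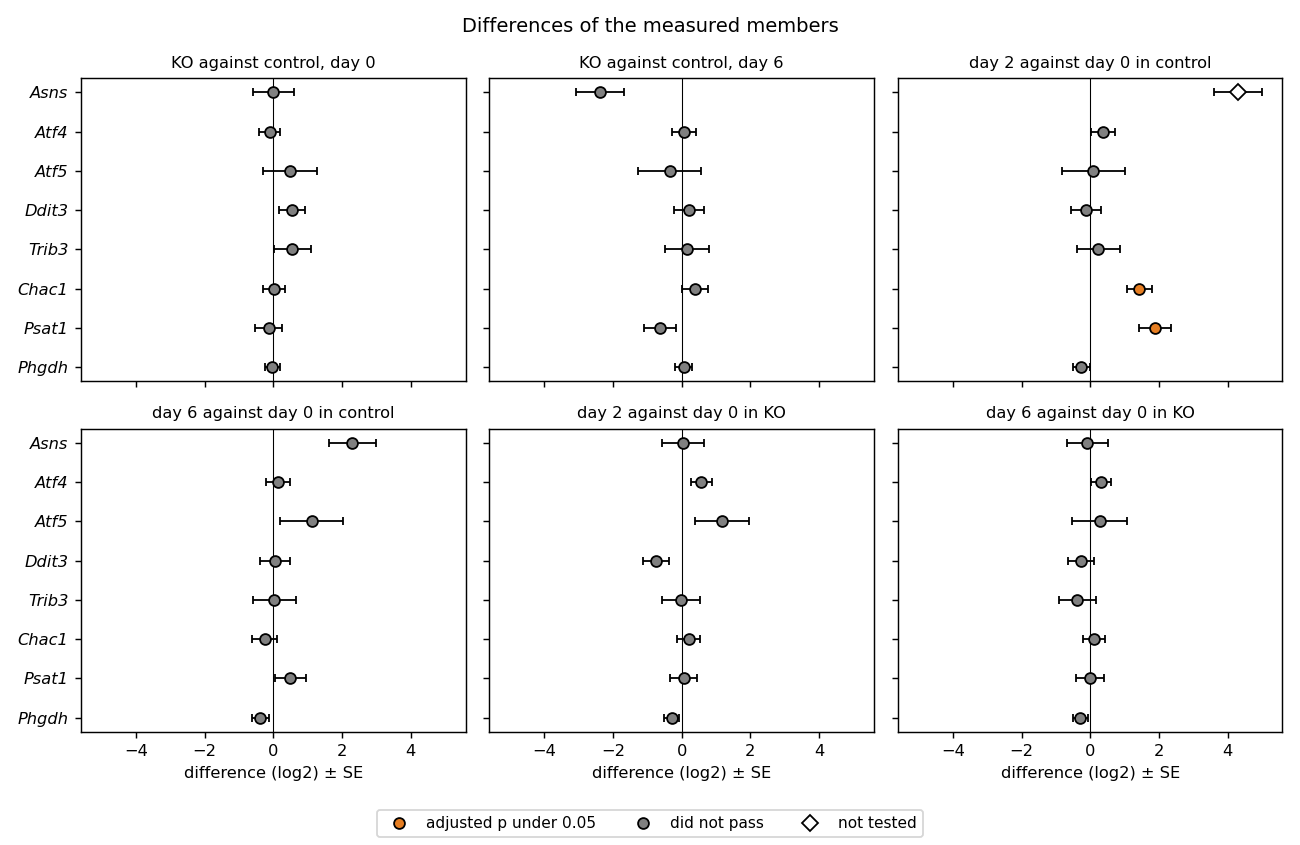
Log2 differences with SE (x axis) of the 8 members above the filter (y axis) in 6 comparisons. Orange points passed at an adjusted p under 0.05, grey points did not, and the open diamond was not tested. Chac1 and Psat1 in control from day 0 to day 2 are the 2 that passed, at 1.43 and 1.88.

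Other genes of the pathway were read from lists, which were chosen with earlier results of these data known. Of all genes, 5.23% were called higher and 4.28% lower in control on day 2 against day 0, and 2.12% and 0.738% on day 6. Without control day 6 mouse 392 or control day 0 mouse 265, 303 or 263, the share called in either direction on day 6 was 0.751%, 0.738%, 1.27% or 1.49%. In KO against control before surgery 6.79% were called higher and 2.87% lower, and the share in either direction was 4.88%, 5.7% and 6.43% without control day 0 mice 265, 303 and 263. Of 4 amino acid transporters of the ATF4 target list measured above the filter, 1 was higher in control on day 2 than on day 0 and 3 did not pass (list median 0.43, all genes 0.08). This was Slc1a4, a carrier of serine and alanine, which rose from 4.83 to 6.66 (1.83 ± 0.40, SE, limma adjusted p = 0.0115). Slc1a4 was also higher in control on day 6 (1.82 ± 0.40, adjusted p = 0.0163) and, before surgery, in KO than in control (1.51 ± 0.34, adjusted p = 0.00801). With the mean of its probe sets all 3 calls were lost, and the day 6 call was also lost without control day 6 mouse 392 or any control day 0 mouse (adjusted p up to 0.0854). Of 10 enzymes of amino acid and one-carbon metabolism, 1 was higher on day 2 in control, Aldh18a1 of proline synthesis (3.10 ± 0.82, adjusted p = 0.0258), and 1 was lower, the mitochondrial serine hydroxymethyltransferase Shmt2 (−0.99 ± 0.25, adjusted p = 0.0212). Both calls were lost without control day 2 mouse 265 or control day 0 mouse 265 or 303 (that of Aldh18a1 also without control day 0 mouse 263), with adjusted p up to 0.125 and 0.0941. Of 16 aminoacyl-tRNA synthetases, which charge tRNAs, 1 was higher (Lars, 0.91 ± 0.25, adjusted p = 0.0281, lost without control day 2 mouse 265 or any control day 0 mouse), with a list median of 0.21.

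Of 17 stress effectors and regulators of the ATF4 list, 3 were higher in control on day 2 and 14 did not pass (median 0.31), where 5.23% of all genes were called higher. Cdkn1a rose from 4.36 to 7.92 (3.56 ± 0.99, SE, limma adjusted p = 0.033). Its day 2 call was lost without control day 2 mouse 264 or 265 or any control day 0 mouse (up to 0.112). Map1lc3b rose by 0.84 ± 0.26 (adjusted p = 0.0473), a call that held in only 3 of 21 fits without 1 array. Ddit4, an inhibitor of mTORC1, rose from 3.67 to 5.52 on day 2 (1.85 ± 0.46, SE, adjusted p = 0.0197) and to 6.49 on day 6 (2.82 ± 0.46, adjusted p = 0.00309). The day 6 call held without any single array, whereas that of day 2 was lost without control day 2 mouse 265 or control day 0 mouse 265 or 303 (adjusted p up to 0.103). Before surgery 4 of the 17 were higher in KO than in control and 13 did not pass (median 0.42, all genes 0.02), where 6.79% of all genes were called higher, among them Cdkn1a (3.8 ± 0.86, adjusted p = 0.00767) and Ddit4 (1.39 ± 0.40, adjusted p = 0.0321). Cdkn1a, a cell cycle inhibitor that p53 also induces, was lost without control day 0 mouse 265 (0.0527), and Ddit4 without that mouse, control day 0 mouse 303 or KO day 0 mouse 258 or 312 (up to 0.246). Of 13 genes for eIF2alpha kinases and translation control, 1 was higher and 1 lower in KO before surgery. The higher was Eif2ak3, the kinase PERK of the endoplasmic reticulum, at 6.94 in KO and 5.62 in control (1.32 ± 0.25, adjusted p = 0.0017), a call that held without any single array. The lower was the phosphatase subunit Ppp1r15b (−0.82 ± 0.24, adjusted p = 0.0391), which was lost without any control day 0 mouse or KO day 0 mouse 254, 312 or 332 (up to 0.257). In control on day 2, 2 of the 13 were higher and 1 was lower. Eif2ak3 rose there too (1.04 ± 0.29, SE, adjusted p = 0.0313), a call lost without control day 2 mouse 265 or any control day 0 mouse (up to 0.154). Eif2b4, a subunit of the exchange factor eIF2B, rose by 0.89 ± 0.20 (adjusted p = 0.0121), which held without any single array. Eif2b1, another subunit, was at −1.09 ± 0.30 (adjusted p = 0.0287), lost without control day 2 mouse 263 or 265 or any control day 0 mouse (up to 0.117).

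Of 19 chaperones and genes of the endoplasmic reticulum response, none passed between genotypes on day 0 or day 6. In control 1 was lower on both later days, Herpud1 of protein degradation (−1.04 ± 0.29, SE, adjusted p = 0.0323, on day 2, and −1.23 ± 0.29, adjusted p = 0.0251, on day 6). On both days the call was lost without control day 0 mouse 263 or 265; that of day 2 was also lost without control day 2 mouse 263 or 265, and that of day 6 without control day 6 mouse 392 or 393 (adjusted p up to 0.133). Of 8 mitochondrial chaperones and proteases, 1 was lower in control on day 2 (Trap1, −1.18 ± 0.21, adjusted p = 0.00441), which held without any single array. None of the genes in these 7 lists passed in KO between day 0 and a later day. Of all genes, 0% were called there on day 2 and 0.137% on day 6, so nothing is read from this. Every call named here for a list gene in control was lost when the fit held the 2 control groups alone, and every such call of day 2 was also lost without the 3 arrays of high Gapdh difference, which leaves mouse 264 as the only control day 2 sample.

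By Pearson correlation over the 21 arrays, the gene most like Asns among all those tested was Psat1 (r = 0.89, Spearman rho = 0.76). This first rank is by Pearson r over all arrays: rho was higher for Cdk2ap1 (0.88) and Ccdc115 (0.78), and without the 2 arrays of farthest Asns, r was 0.81 for Psat1 and 0.88 for Cyp4a14. The next were Ccdc115 (0.88), the cell cycle repressor E2f8 (0.87), Tnfrsf11b (osteoprotegerin, 0.87), the fatty acid hydroxylase Cyp4a14 (0.87) and Cdk2ap1 (0.87). The lowest were Acad10 (−0.89) and the periportal cytochrome P450 Cyp2f2 (−0.89). Asns was at 3.66 or under on 16 arrays and at 4.82 or over on 5, so these values rest largely on 5 control livers, and they are given as a description. As deviations from group means the correlation with Asns was 0.70 for Psat1, 0.57 for Cyp4a14 and −0.78 for Cyp2f2. Cyp4a14 read 12.19 in control day 2 mouse 264 and 9.21 in control day 6 mouse 392, against 2.64 and 2.62 in control day 6 mice 303 and 393. Of the other members, Chac1 (r = 0.63) ranked 360 and Atf4 (r = 0.33) ranked 1847 of the genes tested. The Atf4 value is for its brightest probe set only, and no correlation is given for the second Atf4 probe set described above. That probe set read 8.95 to 9.40 in control day 2 and 8.97 in control day 6 mouse 392. It read at most 8.91 in KO and 8.05 in control day 0, but only 8.13 in control day 6 mouse 303, where Asns was 4.82. How Atf4 mRNA goes with Asns thus depends on the probe set.

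Markers of other cell types also differed between these groups. The mean log2 value of 5 neutrophil genes was 4.19 to 6.10 in control day 2 and 2.86 to 3.48 in control day 0, with S100a8 and S100a9 the highest and Camp and Ltf near background on all arrays. This neutrophil mean was 3.78 to 5.01 in control day 6. In KO it was 2.79 to 4.12 on day 0, 3.47 to 4.70 on day 2 and 4.29 to 5.15 on day 6. Over 6 bile duct genes the mean was 3.82 to 4.36 in control day 2, 3.28 to 3.39 in control day 0 and 4.28 to 5.45 in KO day 0. Macrophage means, over 7 genes, were 6.31 to 7.78 in control day 2, 6.16 to 6.89 in control day 0 and 6.53 to 9.64 in control day 6. In KO they were 6.42 to 6.89 on day 0, 6.03 to 7.44 on day 2 and 6.35 to 7.75 on day 6. The stellate cell and fibroblast list, over 7 genes, had a mean of 4.82 to 4.94 in control day 0, 5.31 to 6.18 in control day 2, 6.49 to 7.77 in KO day 0 and 6.34 to 7.68 in KO day 2. Of its 5 genes above the filter, limma called 4 higher in KO before surgery (Col1a1, Lum, Col3a1 and Dcn; 6.79% of all genes) and 1 higher in control on day 2 (Col3a1; 5.23%), while Des and Lrat were at or under 4 on all arrays. The part of these cells in the values of Asns, Psat1 and Chac1 was not tested. The exocrine pancreas expresses Asns strongly, and 13 of 14 pancreas genes on the array were at or under 4 on every array, the exception being Cela1, whose mean was 10.42 in control day 0 and 8.55 in control day 2.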

How the data were processed

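Total RNA was extracted with Trizol and carried a biotin label from a 3-prime IVT protocol, per the labels. The deposited values are log2 expression made by the authors with GCRMA, per the submitters' processing notes; its version was not stated there, and the log2 scale was read from the values. Normalization was kept as deposited. Members and gene lists were chosen with earlier results of these data known.

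Each gene was represented by its brightest probe set (highest mean over arrays). Probe sets naming 1 gene numbered 20380, and 691 named several, 1555 none and 64 were controls. Tests covered 7320 of 12393 genes, those with 3 or more arrays above 4. Contrasts came from a single linear model holding the 6 groups (limma 3.58.1, functions lmFit and eBayes, in R 4.3.3; 15 residual degrees of freedom), with Benjamini-Hochberg adjusted two-sided p-values and a threshold of 0.05. An array gives no molecule count, so the number of arrays limits precision. The models were tested on simulated data. Figures used matplotlib 3.10.9 in Python 3.11.15.

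Named were all members, Abcb4, up to 3 genes in each direction per list and comparison with the largest change past the threshold (a subset is printed), and the 6 genes most and 2 least correlated with Asns. Cell type markers are given as values.

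Samples of 1 mouse share its number, which pairs them. In 9 pairs the correlation of deviations from group means was −0.0568 to 0.303, and above 0.1 in 5. Alternatives were other filters, probe set rules, normalizations, variance models, weights, the mouse as a block, fits restricted to the compared groups, and leaving out arrays.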

Additional observations from a re-analysis of the deposited data

Results flagged for a closer look

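In KO livers at surgery, the only group of 6, mouse 258 lay far above the other 5 for 3 of 20 probe sets, where the gap to the next mouse took up an unusual part of the group's range. About 1 in 20 such groups would do so by chance. Asns (1433966_x_at) read 3.66 in this mouse and 2.96 in the next, still near background. Chac1 read 6.60, against 5.57 in the next mouse. Phgdh (1454714_x_at) read 3.25, against 2.96. On day 2 the same mouse read 3.15 for Asns and 5.70 for Chac1.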

How the results depend on the processing

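With 3 arrays in most groups, single arrays moved several results. Leaving out each array in turn gave 0 to 1 members called for KO against control on day 6, 0 to 2 in control from day 0 to day 2 and 0 to 1 in control from day 0 to day 6. The count in control from day 0 to day 2 fell from 2 to 1 with the filter at log2 6, which leaves Psat1 untested, and to 0 when the fit held the 2 control groups alone, which has fewer arrays. Array weights raised the count from 0 to 1 on KO against control at day 6 and in control from day 0 to day 6. Both times this was Asns, which entered the test through control arrays after resection only. No filter raised the count from 0 to 1 on KO against control at day 0 (Sesn2). The Asns difference, near 0 before surgery, lay between −0.149 and 0.0607 without single arrays and was 0.0128 with quantile normalization. Within KO it lay between −0.0667 and 0.179 on day 2 and between −0.144 and 0.066 on day 6, and array weights gave 0.0265 on day 6. The day 2 difference of Asns, KO against control, kept its sign and lay between −4.90 and −3.61 without single arrays. With the mouse as a random replicate block (correlation 0.108) it was −4.29, and the block changed no call of the members named singly. Centring each array on its median moved the median of all genes from 0.02 to −0.12 for KO against control on day 0 and from −0.03 to −0.20 on day 6. Values under 4 carry little signal over background, which limits Asns, Psat1, Phgdh and Sesn2.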
